A study of Mus musculus with 2 samples.

Results

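CD8 T cells were taken here as cells with UMIs (unique molecular identifiers, each standing for 1 captured transcript) of the T cell receptor complex and of CD8, and with none of *Cd4*, *Foxp3* or *Cd163l1*. In numbers, a member had at least 2 UMIs summed over *Cd3d*, *Cd3e* and *Cd3g*, and at least 2 summed over *Cd8a* and *Cd8b1*. It also had 0 UMIs each of *Cd4*, of the regulatory T cell factor *Foxp3* and of *Cd163l1*, a marker of dermal γδ T cells. Of 23878 cells kept from both libraries, 648 were members, 638 of 11665 in the ACD library and 10 of 12213 in the control library. The members were thus chosen by measured UMIs of these genes, whose levels are no finding. A member was called cycling when it held at least 3 UMIs summed over *Mki67*, *Top2a* and *Birc5*, 3 genes of dividing cells.

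The study profiled mouse ear skin by droplet single-cell RNA sequencing, with 1 library of each of 2 groups. Control skin was healthy ear skin of ICR mice 7 to 8 weeks old. ACD (allergic contact dermatitis) skin came from ICR mice of the same age, male by the study's methods, whose back skin had been painted with 1.0% of the hapten DNFB. On day 6 their ears were painted with 0.2% DNFB, and ear skin was taken at 60 hr. Both tissues were freed into single cells with collagenase D and a DNase. The number of mice behind a library is not given in the sources used here, and no replicate stands behind any value, so no difference between the groups was tested. Every interval in parentheses is an exact 95% interval and covers counting error only.

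CD8 T cells recognise peptides on MHC class I molecules and, once activated, divide, make interferon-γ and chemokines, and kill target cells with granzymes and perforin delivered from granules. In contact allergy the hapten binds to proteins of the skin and its products are presented to T cells. Naive and resting memory CD8 T cells carry the receptors *Ccr7* and *S1pr1*, which take them through lymph nodes, and the factors *Klf2* and *Tcf7* that go with this state. Both are lost to a varying degree when the cells become effectors.

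Markers that the rule did not use were checked first. In ACD all 8 listed T cell genes were found, and the 5 outside the rule were *Lck*, *Lat*, *Thy1*, *Cd2* and *Cd5*. The NK list was found at a summed level of 79.3 UMIs per 1000000, against 3604 in cells gated as NK cells. That gate asks for *Ncr1* and *Klrb1c*, which are in the list, so the 3604 is in part set by the gate. *Ncr1* and *Klrb1c* were each found in 10 of 638 members. Constant genes of the T cell receptor were not used here, so αβ and γδ T cells were not told apart by them. In total 92 members (14.4%, 11.8 to 17.4%) held *Cd8a* but no *Cd8b1* UMI, while all 10 control members held a *Cd8b1* UMI. At the edges of the rule, 101 members had exactly 2 Cd8 UMIs, 90 barcodes just outside had 1, and 22 were kept out only by a *Cd4* UMI.

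RNA of other skin cells was present among the members. The 6 fibroblast markers summed to 2707 UMIs per 1000000 in ACD members, all 6 of 6 were found, and 544 members held at least 1 such UMI. A total of 61 ACD members and 1 of the 10 control members held 20 or more UMIs over 6 lists of other cell types (fibroblast, chondrocyte, keratinocyte, mononuclear phagocyte, neutrophil, mast cell or basophil). These are called mixed barcodes, a threshold set after the data were seen. Counts and the levels most touched are given with and without them for ACD against control and for cycling against other members. The main comparisons with other gates and by *Cd8b1*, the steps of the cycling sum and the thinned shares include them. Of the 61, 54 were non-cycling and 7 cycling, and their median was 14737 UMIs. The doublet caller Scrublet marked 35 of the 638 ACD members, 30 of them mixed, and marked the mixed control member. Marked cells were kept. No barcode was a member in both libraries, although the libraries shared 50 barcodes and 4 ACD members had a barcode that also occurs in the control library.

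CD8 T cells made up 5.47% (5.06 to 5.90%) of ACD cells and 0.0819% (0.0393 to 0.151%) of control cells, 66.8 times as large a share. The log2 ratio was 6.06 (5.17 to 7.13). Among cells passing the T cell gate alone, the share was 20.4% (638 of 3130) in ACD and 1.24% (10 of 805) in control. Without cartilage cells in the denominator the shares were 6.69% and 0.112%. The members were deep, with 1202 to 24874 UMIs per cell in ACD (median 7659) and 1942 to 10600 in control (median 4227). The 10 control cells held 49465 UMIs in all, against 5892220 in ACD, and 3 UMIs there already stand for a level of 60.6 per 1000000. Shares of cells depend on which cells survived digestion, and in 1 library per group this and the makeup of the tissue cannot be told apart.

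Below, the level of a gene is its UMIs in a group per 1000000 UMIs of that group. The libraries were read from the 3′ end with 1 UMI per transcript, so levels of different genes need no correction for length. Outside ribosomal and mitochondrial genes, the members of ACD were led by the actin-binding peptide *Tmsb4x* (15614), the nuclear RNA *Malat1* (13197), *Actb* (9346) and *Tpt1* (9159), and the MHC class I gene *H2-D1* (5137) was among the leading 10. The 20 cytotoxic genes summed to 5359, with *Nkg7* (1471), *Srgn* (1376), *Gzma* (1095), *Ctsw* (515) and *Gzmb* (415) at the top. The 13 chemokines summed to 3453, of which *Ccl5* alone gave 2327. Of 21 cytokines, *Mif* (755), *Ifng* (496) and *Ltb* (391) led, while *Tnf* stood at 68.1, *Il2* at 5.601 and *Il10* at 2.89. No UMI of *Il4* was found in any member.

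The comparison of ACD with control members asked what CD8 T cells of inflamed skin carried that those of healthy skin did not. Interferon-γ, *Ifng* (ENSMUSG00000055170, chr10:118441046-118445892), stood at 496 (478 to 515) in ACD and 384 (231 to 600) in control. The control value came from 19 UMIs spread over 8 of 10 cells. The intervals overlap, so at this depth no difference was detectable in the level per CD8 T cell RNA.

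Granzyme A, *Gzma* (ENSMUSG00000023132, chr13:113093825-113100981), stood at 1095 (1069 to 1122) in ACD and 243 (125 to 424) in control, where all 12 UMIs lay in 1 cell. Granzyme B, *Gzmb*, stood at 415 (399 to 432) and 263 (140 to 449), and perforin, *Prf1*, at 20.03 and 40.4, the latter from 2 UMIs. The granule proteins *Nkg7* (1471 and 1496) and *Srgn* (1376 and 1375) were level between the groups. Thus *Gzma* alone of these stood apart, and its control value rested on 1 cell.

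The chemokines differed among themselves. *Ccl5* (ENSMUSG00000035042, chr11:83525778-83530518), which attracts T cells and monocytes, stood at 2327 (2289 to 2367) in ACD and 3315 (2827 to 3864) in control, but 110 of the 164 control UMIs came from 1 cell. The log2 ratio of -0.51 turned to 0.43 when 1 UMI each of Cd3 and Cd8 was enough, and to 1.49 when every cell was thinned to 2000 UMIs. *Ccl4* stood at 447 (430 to 464) and 263 (140 to 449), and *Ccl3* at 234 (222 to 247) and 80.9 (22.0 to 207). *Xcl1*, which attracts cross-presenting dendritic cells, stood at 196 in ACD, with 1 UMI in control. Of the skin-homing and residency genes, *Cxcr6* (288 and 323), *Itgae* (84.0 and 101) and *Cd69* (607 and 748) overlapped in their intervals. *Prdm1* (19.3, 15.96 to 23.2, and 162, 69.8 to 319) and *Itga1* (17.7, 14.4 to 21.4, and 121, 44.5 to 264) were lower in ACD, on 8 and 6 control UMIs, and 5 of the 8 for *Prdm1* lay in 1 cell.

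**Figure D1:**
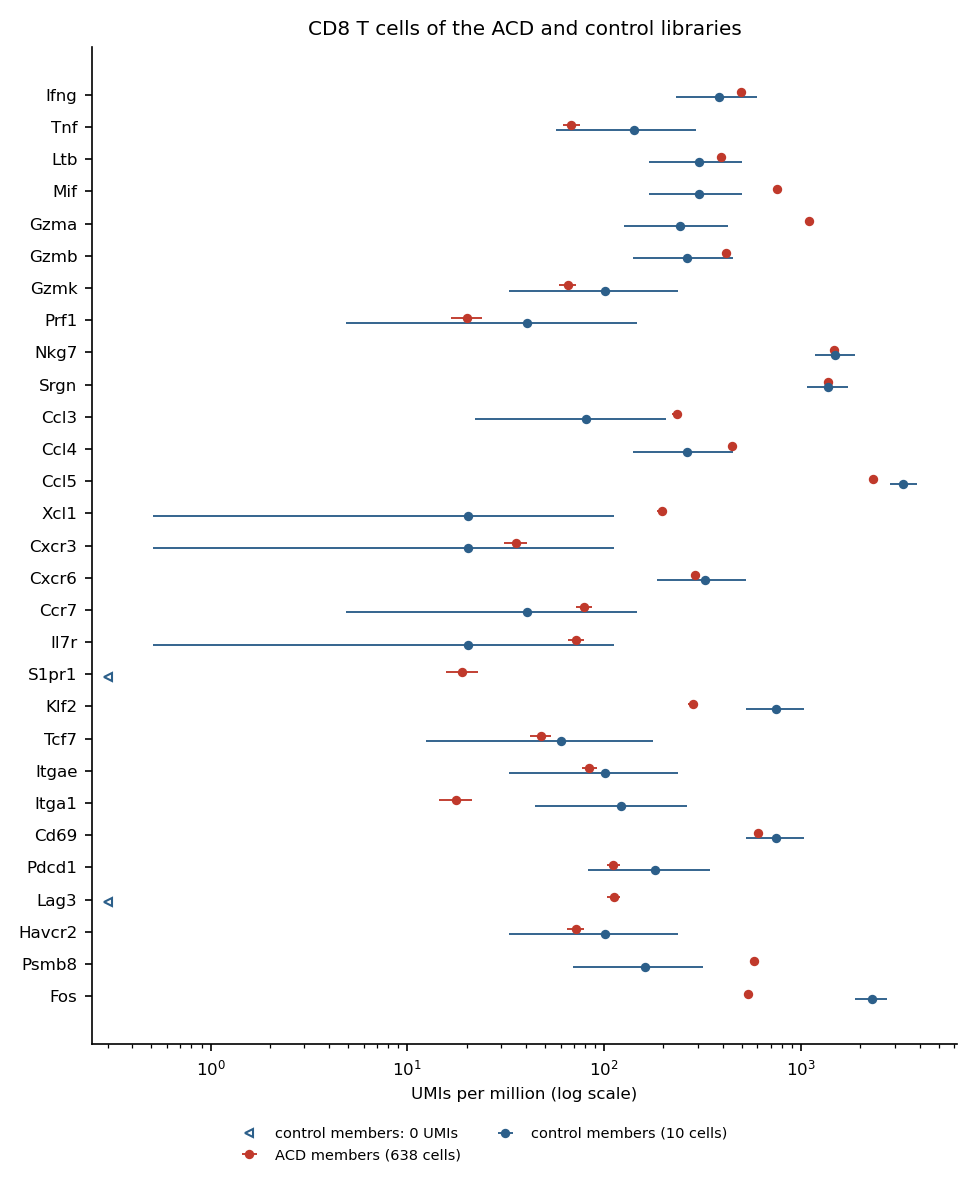
Levels of effector, homing and memory genes in the 638 ACD and 10 control CD8 T cells, in UMIs per 1000000 on a log axis. Points are levels, bars exact 95% Poisson intervals cut at 0.3 on the left, and open triangles genes with 0 UMIs. The wide blue control intervals overlap the red ACD point for *Ifng* and *Nkg7*, and lie below it for *Gzma* and *Psmb8* and above it for *Klf2*.

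With 10 added to each level, 516 genes had a mean level of at least 250. Of these, 22 (4.26%) were 2-fold or more higher and 31 (6.01%) 2-fold or more lower in ACD. Besides *Gzma* they included the interferon-induced non-coding RNA *AW112010* (944 against 222), the immunoproteasome subunit *Psmb8* (574, 555 to 594, against 162, 69.8 to 319) and the lymphocyte membrane gene *Ms4a4b* (433 against 121). *Psmb8* is 1 of 2 called among 5 measured interferon-response genes, whose median log2 ratio was 0.91 where all genes tested had 0.00. Of 6 glycolysis genes, 2 were called higher, *Aldoa* (680 against 283) and *Ldha* (698 against 303). Of 78 ribosomal protein genes 76 lay above 0, with a median of 0.27 and 1 called.

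Lower in ACD were *Klf2* (ENSMUSG00000055148, chr8:72319033-72321656), the factor of resting and recirculating T cells, at 281 (268 to 295) against 748 (527 to 1031), and *Rora*, a nuclear receptor, at 291 against 667. Without the mixed barcodes 19 of 503 genes (3.78%) were higher and 24 (4.77%) lower. Both genes were lower there too, *Klf2* at 140 against 489 and *Rora* at 295 against 798. The 489 came from 19 UMIs. *Klf2* was also found in most cartilage cells, as given below, and the part of RNA from other cells in its levels was not tested. Immediate-early genes lost their calls without the mixed barcodes, though not their direction as a list. With all members, 5 of 14 were called lower, among them *Fos* (539 against 2284) and *Jun* (514 against 1354). Without the mixed barcodes of both groups 0 of 8 were called, the lowest at a log2 ratio of -0.97. *Fos* stood at 219 against 437, still lower but no longer called. *Jun* stood at 183 against 77.2, below the mean level of 250 asked for. Its control level is that of 3 UMIs, so no direction was read for *Jun*. Also among the lowest with all members were the matrix genes *Lum* and *Bgn*, the secreted growth factor *Ptn* and the opioid precursor *Penk*. Of the 259 fibroblast-marker UMIs of control members, 246 lay in the 1 mixed control barcode. *Lag3*, an inhibitory receptor, stood at 112 (103 to 121) in ACD with 0 UMIs in control, where 3 UMIs would be 60.6. *Pdcd1* stood at 111 and 182 (83.2 to 345).

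Of the 638 ACD members, 160 (25.1%, 21.8 to 28.6%) were cycling, and 153 of 577 (26.5%) without the mixed barcodes. In the same library the share was 16.1% (13.4 to 19.1%) of T cells gated on *Cd4*, 8.57% (5.86 to 12.0%) of those gated on *Foxp3* and 4.96% (2.67 to 8.34%) of NK-gated cells. The interval of the CD8 share lies above those of these 3, but the gates were shallower, with median UMIs of 7659 in CD8, 6288 in *Cd4*, 5196.5 in *Foxp3* and 4694 in NK cells, and the part of depth in these shares was not tested. Cycling members were deeper than the rest, with a median of 13891 UMIs against 6505, and depth raises the chance of reaching 3 UMIs. In control 1 of 10 members was cycling (0.253 to 44.5%), and 10 of 44 cells of the *Cd4* gate (22.7%, 11.5 to 37.8%). The sum had a long tail, with 353 members at 0, 84 at 1, 41 at 2, 21 at 3 and 93 at 10 or more.

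The filter on cells bore on this share. A further 92 ACD barcodes met the gene rule but fell outside the filter, 79 of them with over 25000 UMIs, and 77 of the 92 (83.7%, 74.5 to 90.6%) were cycling. With them the cycling share was 32.5% (237 of 730). Of the 92, 39 also held 20 or more UMIs of other cell types, and the part of doublets in this count was not tested. The control library held 0 such barcodes of 682 outside the filter (0 to 0.539%).

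The levels of 7727 genes with at least 50 UMIs over the ACD members were compared between cycling and other members. *Mki67*, *Top2a* and *Birc5* were left out, but the split itself used genes of division, so the gene groups of the cell cycle are a description. Of the genes tested, 221 (2.86%) were 2-fold or more higher and 287 (3.71%) 2-fold or more lower in cycling members. Without the mixed barcodes 212 of 6819 (3.11%) were higher and 58 (0.851%) lower. The count of lower genes thus depended on the mixed barcodes, and RNA of other cell types lay mainly among non-cycling members. The fibroblast markers summed to 3756 in other and 948 in cycling members, and the chondrocyte markers to 322 and 30.9.

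The highest genes were those of mitosis and of DNA packaging. *Ube2c*, the ubiquitin-conjugating enzyme that works with the anaphase-promoting complex, stood at 396 in cycling and 15.4 in other members (log2 ratio 3.998). The histone gene *Hist1h2ap* followed at 1090 and 63.1 (3.91), then the replication-clamp binding gene *2810417H13Rik* at 545 and 32.5 (3.71) and the kinetochore gene *Cenpf* at 131 and 1.90 (3.56). Cyclin genes were among the 10 highest, *Ccna2* at 117 and 1.90 (3.41) and *Ccnb2* at 143 and 5.69 (3.28). Of 35 measured G2/M genes 33 were called higher and 0 lower, with a median log2 ratio of 2.09. Of 17 histone genes 15 were higher (median 1.47), though near-identical copies make the counts of any 1 of them uncertain. Of 31 G1/S genes 21 were higher (median 1.25), led by the nucleotide enzymes *Rrm2* (271 and 23.3), *Tyms* (178 and 22.5) and *Tk1* (120 and 15.99). The median over all genes tested was -0.03.

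The start regions of these genes are shown because they carry short motifs known for cell-cycle genes. A CHR element has the letters TTTGAA and is bound, with CCAAT boxes close by, in genes that are active late in the cycle, whereas E2F sites (searched here as GCGGGAA) belong to genes of the G1/S step. Each window runs from 250 bases before to 50 bases after the RefSeq gene start on GRCm38.p6, in the direction of the gene. Capitals mark TTTGAA and CCAAT on either strand, so that TTCAAA and ATTGG are marked too.

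*Ube2c*, chr2:164769679-164769978, plus strand, 1 CHR from base 222 and 6 CCAAT boxes:
Ube2c: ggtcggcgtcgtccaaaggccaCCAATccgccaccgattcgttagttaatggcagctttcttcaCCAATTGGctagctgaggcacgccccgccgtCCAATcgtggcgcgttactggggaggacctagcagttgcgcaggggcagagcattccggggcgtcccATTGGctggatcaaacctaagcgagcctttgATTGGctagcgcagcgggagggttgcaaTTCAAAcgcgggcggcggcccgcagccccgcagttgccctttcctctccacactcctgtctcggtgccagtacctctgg
*Cenpf*, chr1:189688037-189688336, minus strand, 1 CHR from base 253 and 2 CCAAT boxes:
Cenpf: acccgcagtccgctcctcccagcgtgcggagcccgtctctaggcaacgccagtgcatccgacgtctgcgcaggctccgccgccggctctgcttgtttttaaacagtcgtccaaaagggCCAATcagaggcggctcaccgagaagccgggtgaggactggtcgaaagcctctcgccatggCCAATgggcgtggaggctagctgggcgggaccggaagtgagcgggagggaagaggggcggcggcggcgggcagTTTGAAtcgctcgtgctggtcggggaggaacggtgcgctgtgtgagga
*Cdca8*, chr4:124936868-124937167, minus strand, 1 CHR from base 264 and 4 CCAAT boxes, the last of them sharing 1 base with the CHR:
Cdca8: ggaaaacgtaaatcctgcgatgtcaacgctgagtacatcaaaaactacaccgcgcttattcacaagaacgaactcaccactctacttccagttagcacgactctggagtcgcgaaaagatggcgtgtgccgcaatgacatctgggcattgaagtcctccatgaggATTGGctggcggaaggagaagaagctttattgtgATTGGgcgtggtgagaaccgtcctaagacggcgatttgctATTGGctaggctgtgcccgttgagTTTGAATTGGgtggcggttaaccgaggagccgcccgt

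Bases are counted from the 5′ end of each window. TTTGAA stood in 20.2% of 27025 RefSeq windows, in 14.3% of the 6216 genes tested that had a window, and in 40.9% of the 181 of 221 higher genes that had one. Among the G2/M list it stood in 24 of 36 windows (66.7%), among the G1/S list in 4 of 26 (15.4%). CCAAT stood in 42.9% of genes tested and 67.4% of higher genes, and both motifs in 5.81% and 33.1%. GCGGGAA went the other way between the lists, in 0 of 36 G2/M and 9 of 26 (34.6%) G1/S windows, against 10.6% of genes tested. A match describes the letters of the window and shows no binding.

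**Figure D2:**
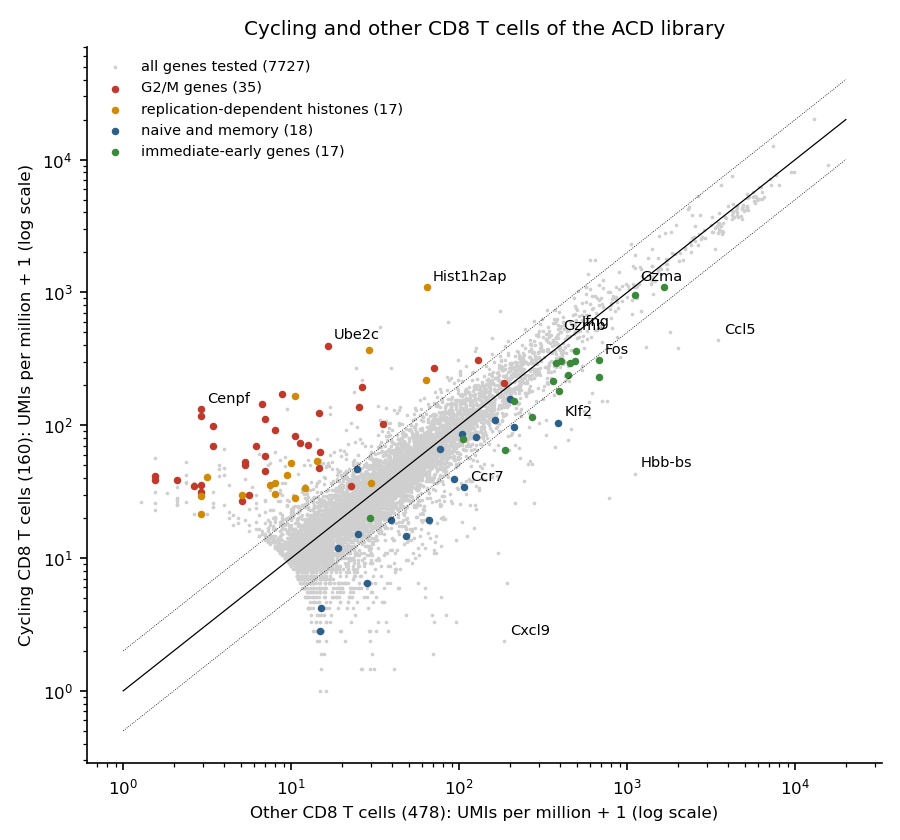
Levels of 7727 genes in the 160 cycling (vertical) and 478 other (horizontal) ACD CD8 T cells, in UMIs per 1000000 plus 1 on log axes, with 4 gene lists coloured and dotted lines at 2-fold. *Ube2c*, *Cenpf* and *Hist1h2ap* lie far above the diagonal, *Gzma*, *Gzmb* and *Ifng* lie close to it, and *Ccl5* lies below it with *Klf2* and *Ccr7*.

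No measured effector gene of killing was called between the sides, and *Gzma* and *Ifng* were at like levels. *Gzma* stood at 1098 (1055 to 1143) in cycling and 1094 (1060 to 1128) in other members, and *Ifng* at 502 (473 to 533) and 493 (470 to 516). The plain log2 ratio of *Ifng* was 0.03 (-0.08 to 0.14), so a larger difference was not seen in these sums. *Gzmb* was higher in cycling members by less than 2-fold, at 470 (442 to 500) and 382 (363 to 403). Its plain log2 ratio was 0.30 (0.18 to 0.41), and 0.15 (0.03 to 0.27) without the mixed barcodes. *Nkg7* stood at 1579 and 1406, and *Ctsw* at 566 and 485. Of 14 measured cytotoxic genes 0 were called in either direction, with a median log2 ratio of -0.18. Over all genes tested 2.86% were called higher and 3.71% lower, so 0 calls among 14 genes is near that share.

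*Ccl5* was the exception among the effector genes. It stood at 436 (409 to 464) in cycling and 3456 (3396 to 3516) in other members, a log2 ratio of -2.96, and at -3.15 without the mixed barcodes. The UMIs were spread over 372 members, and the highest cell held 2.47% of them, so the difference did not rest on a few cells. Of 7 measured chemokines 3 were called lower, and 1 of 6 without the mixed barcodes, which was *Ccl5*. *Ccl3* stood at 287 (265 to 310) and 203 (188 to 218), *Ccl4* at 465 (437 to 494) and 435 (414 to 457), and *Xcl1* at 187 (169 to 206) and 202 (188 to 217). *Cxcl10* stood at 17.7 and 58.8, and at 18.1 and 15.8 without the mixed barcodes. *Cxcl9*, the third one called and among the lowest genes, had 97.5% of its UMIs in 3 cells, and the hemoglobin gene *Hbb-bs* 92.0% in 1 cell.

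Genes of naive and memory T cells lay mostly below 0 in cycling members. Of 18 measured, 17 lay below 0 and 8 were called lower, with a median log2 ratio of -0.82. *Klf2* stood at 104 (90.5 to 118) and 387 (367 to 408), and at 71.6 and 189 without the mixed barcodes. Cartilage cells also held *Klf2*, and the part of such RNA in these levels was not tested. *Ccr7* (ENSMUSG00000037944, chr11:99144196-99155077), the lymph node homing receptor, stood at 33.2 (26.0 to 41.7) and 106 (95.7 to 117), and *Tcf7* (ENSMUSG00000000782, chr11:52252371-52283014), a factor of memory precursors, at 18.2 (12.98 to 24.7) and 65.0 (57.1 to 73.8). *S1pr1*, the egress receptor, stood at 5.45 and 27.1, and *Bcl2*, which protects from cell death, at 38.6 and 91.9. Without the mixed barcodes 5 of 15 were called, with a median of -0.63; *Ccr7* then had -1.76 and *Tcf7* -1.53. *Id3* was called lower with all members (95.4 and 212) but stood at 64.0 and 69.1 without the mixed barcodes.

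Other genes were lower as well. The interferon-γ receptor chain *Ifngr1* (ENSMUSG00000020009, chr10:19591949-19610229) stood at 95.4 (82.9 to 109) and 257 (241 to 274). It was the 1 gene called among 20 cytokine receptors, where 3.71% of all genes tested were called lower. *Gimap3*, a GTPase of lymphocyte survival, stood at 37.7 and 142, and the kinase *Txk* at 28.2 and 79.9. *Klra1*, an NK-type receptor, was almost confined to other members, with 148 of its 149 UMIs there, in 42 cells.

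Of 14 cytokines 3 were called higher in cycling members and 1 lower, and 2 and 1 without the mixed barcodes. Lymphotoxin-α, *Lta* (ENSMUSG00000024402, chr17:35203165-35205351), stood at 104 (91.4 to 119) and 33.6 (27.9 to 40.1), a log2 ratio of 1.39, and 1.25 without the mixed barcodes. *Il13* stood at 35.4 and 8.13 (36.8 and 9.98 without the mixed barcodes), on 108 UMIs in 23 cells. The part of single cells in this call was not tested. *Csf2* stood at 37.2 and 13.5, and at 37.2 and 16.5 without the mixed barcodes, where it was no longer called. The lower one, *Il17a*, stood at 10.9 and 55.8 on 230 UMIs in 22 cells, 96 of them in 1 cell.

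Of 9 inhibitory receptors 0 were called between cycling and other members, 5 lay above 0 and 4 below, and the median of 0.27 became 0.09 without the mixed barcodes. *Pdcd1* stood at 139 (124 to 156) and 94.3 (84.7 to 105), *Lag3* at 129 (115 to 145) and 101 (91.3 to 112), and *Havcr2* at 87.6 (75.7 to 101) and 62.1 (54.3 to 70.6). Tissue residency genes had a median of 0.16 and 0 of 12 called. With 2.86% of all genes tested called higher and 3.71% lower, lists this short would hold few calls. Among them *Cxcr6* stood at 289 (267 to 313) and 288 (271 to 306). Of the metabolic lists, in the respiratory chain 45 of 47 lay above 0 (median 0.40, 0 called), and glycolysis had 1 of 18 called, *Tpi1* at 394 and 185, with *Ldha* next at 1017 and 507. Ribosomal protein genes lay below 0 in 67 of 81, with a median of -0.13. Immediate-early genes lay below 0 in 17 of 17 with all members (5 called) and in 12 of 17 without the mixed barcodes (0 called), where *Fos* turned from -1.11 to 0.36.

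**Figure D3:**
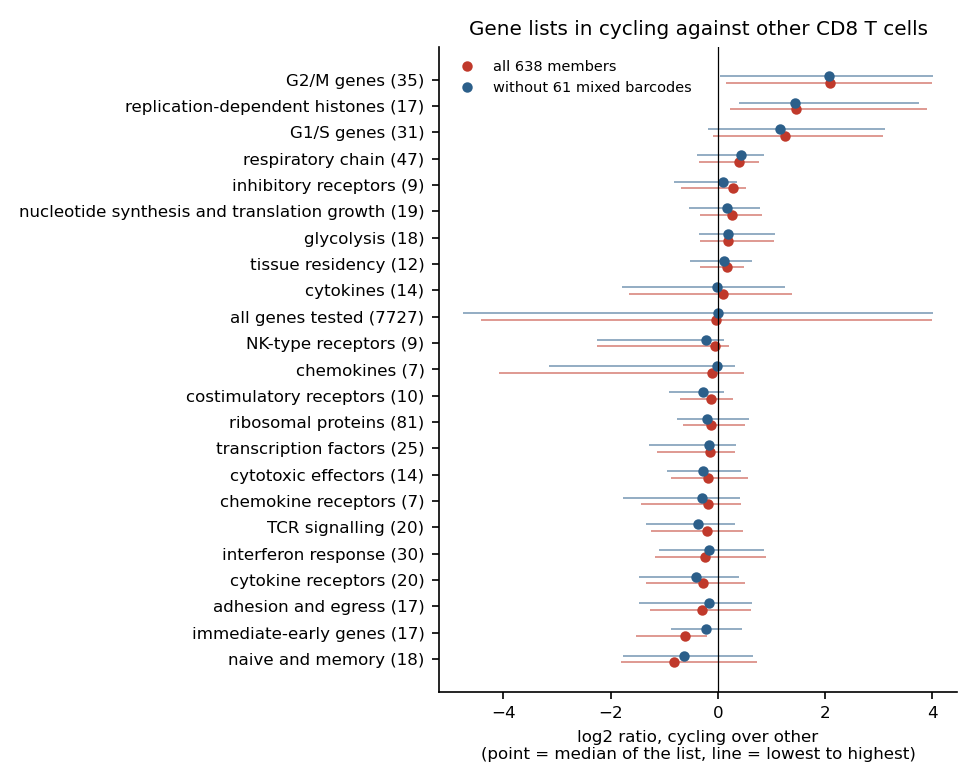
Median log2 ratio of each gene list, cycling over other ACD CD8 T cells, with all 638 members and without the 61 mixed barcodes, as points on lines from the lowest to the highest gene. G2/M, histone and G1/S genes lie far to the right at 2.09, 1.47 and 1.25, naive and memory genes to the left at -0.82, and the immediate-early list moves from -0.62 to -0.21.

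The threshold of the split was then opened into steps of the cycling sum. *Ccl5* stood at 4250 (4170 to 4332) in the 353 members with a cycling sum of 0, at 1793 (1718 to 1870) in the 125 with 1 or 2, at 468 (421 to 517) in the 67 with 3 to 9, and at 418 (385 to 453) in the 93 with 10 or more. *Klf2* ran likewise, at 444, 268, 143 and 80.7, and *Ifngr1* stood at 291, 186 and 105 in the first 3 of these groups. *Ifng* did not, with 359, 772 (723 to 824), 480 and 515, so it was highest in the members with 1 or 2 UMIs. Single cells held up to 197 *Ifng* UMIs among non-cycling members, and their part in this step was not tested. *Gzma* had 986, 1320, 1172 and 1056, and *Gzmb* 325 (303 to 348), 503 (464 to 545), 466 and 472. Median depth over the same 4 groups was 5929, 8416, 11703 and 15049 UMIs. The groups held 38, 16, 4 and 3 mixed barcodes, which were left in, and the part of these in the steps of *Klf2* was not tested. Levels are scaled to the UMIs of each group, and shares of cells at a common depth follow.

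The same split was made in the other lymphocytes of the ACD library. In the *Cd4* gate the plain log2 ratio of *Ccl5* between cycling and other cells was 0.20 (-0.13 to 0.52), at levels of 83.0 and 72.2. In the NK gate it was -2.08 (-2.30 to -1.86), from 13 cycling cells, and in the CD8 gate -2.99 (-3.08 to -2.89). The *Foxp3* gate had the opposite sign at low levels, 229 and 29.1, but on few UMIs, 73 in 30 cycling cells and 56 in the others. Of these UMIs 63 lay in 1 cycling cell, so no direction was read there. *Klf2* was lower in cycling cells of all 4 gates, at -1.90 in CD8, -0.83 in *Cd4*, -0.58 in *Foxp3* and -0.62 in NK cells. Without the mixed barcodes it was at -1.40 in CD8 members, and the other gates were not run without such barcodes. *Lta* was at 1.64 (1.31 to 1.96) in CD8 and 0.17 (-0.28 to 0.61) in *Cd4* cells. Every one of these sums comes from 1 library, so differences between gates have no replicate check.

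Cells were then brought to a common depth by drawing 2000 UMIs from each, which left out 4 ACD members with fewer. *Ccl5* was found in 36 of 159 cycling members (22.6%, 16.4 to 29.9%) and 259 of 475 others (54.5%, 49.9 to 59.1%). Before thinning it was found in 69 of 160 and 303 of 478. Cartilage cells of the same library, which should lack it, gave 1.22% at a median of 10289 UMIs before thinning. *Ccr7* was found in 3.77% of cycling and 14.7% of other members against 0.0471% of cartilage cells. *Ifng* was at 46.5% and 46.3% (cartilage 0.377%), and *Gzma* at 27.7% and 29.7% (cartilage 0.424%). For *Klf2* the shares were 13.8% and 33.9%, but 81.2% of cartilage cells also held it, so no difference was read from its shares. *Lag3* was found in 25.2% (18.6 to 32.6%) and 15.8% (12.6 to 19.4%).

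**Figure D4:**
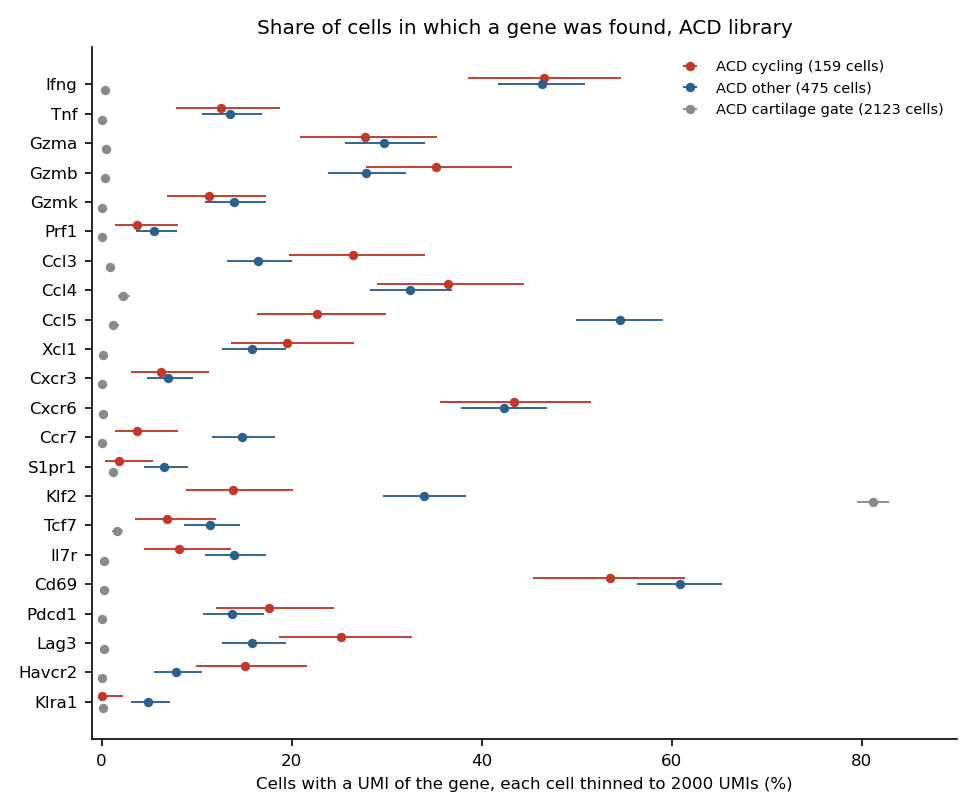
Share of cells holding a UMI of each of 22 genes in the ACD library, every cell thinned to 2000 UMIs, for cycling and other CD8 T cells with exact 95% intervals and for cartilage cells as background. *Ccl5* and *Ccr7* were found in fewer cycling than other members, *Ifng* and *Gzma* in like shares, and *Klf2* is the gene with the highest share in cartilage cells.

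The ACD members were uneven in their effector genes. *Ifng* ran from 0 to 197 UMIs per cell with a median of 2, and the 10% of cells with the most held 51.8% of its UMIs. *Gzma* ran from 0 to 483 with a median of 0, and the same share of cells held 82.6%. For *Gzmb* (highest 79) the figure was 70.8%, for *Ccl5* (highest 339) 56.9% and for the receptor *Cxcr6* (highest 22) 34.4%. So most UMIs of these 2 granzymes lay in 10% of the members, while those of *Cxcr6* were spread more widely. Before thinning, *Gzma* was found in 242, *Gzmb* in 296 and *Cxcr6* in 470 of 638 members. In cycling members *Gzmb* was found in 95 of 160.

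Detection went together for some of these genes. In the 634 thinned members, *Gzma* was found in 43.7% of those with *Ccl5* and 16.5% of those without. *Gzmb* was found in 52.4% of those with *Gzma* and 20.3% of those without, and within cycling members in 63.6% and 24.3%. *Ifng* went with the chemokines *Ccl4* (44.9% of members with *Ifng*, 23.5% without) and *Ccl3* (27.9% and 11.2%), and with the activation marker *Cd69* (67.0% and 52.1%). *Ccr7* was found in 7.48% of members with *Ifng* and 15.9% of those without, and *Tcf7* in 6.46% and 13.5%. *Cxcr6* was found in like shares, 42.9% and 42.4%. Across these cells Spearman's rho was 0.36 for *Ccl5* with *Gzma* and 0.28 for *Ifng* with *Ccl4*. All of these cells share 1 library, and the values describe it.

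Members without a *Cd8b1* UMI were set against those with one. Of 7727 genes, 192 (2.48%) were 2-fold or more higher and 58 (0.751%) lower in these 92 cells, and the higher ones were led by genes of other cells, such as *Col1a1* (1379 against 149), *Col3a1* (2011 against 223) and the mast cell protease *Cma1* (129 against 2.14), of whose 108 UMIs 95 lay in 1 cell. Of 14 cytotoxic genes 0 were called, as were 0 of 20 genes of T cell receptor signalling. Of 14 cytokines 2 were higher, *Il17a* (96.8 against 30.6) and *Il17f* (127 against 29.6), and 1 lower, *Il13* (1.33 against 20.8). *Il17a* was found in only 22 and *Il13* in only 23 of all ACD members. The memory marker *Ly6c2* was lower (92.8 against 196). Single genes were higher among NK-type receptors (*Tyrobp*), adhesion genes (*Vcam1*), naive and memory genes (*Igfbp4*) and cytokine receptors (*Il1r2*), and *Cxcl9* was lower. In the cell cycle 5 of 31 G1/S genes and 14 of 35 G2/M genes were called lower. Their NK markers summed to 153 against 68.5, on 115 UMIs in 13 of the 92 cells, 42 of them in 1 cell. Of the 467 NK-list UMIs in all ACD members, *Tyrobp* gave 229 and *Fcer1g* 166. Their γδ T cell markers summed to 117 against 43.0, on 88 UMIs in 14 cells. That list includes *Il17a*, whose 96.8 and 30.6 make up most of both sums. Neither sum was read as the cell type of these members. Whether the second chain was absent from these cells or missed at this depth was not tested.

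The last comparison set the ACD members against T cells gated on *Cd4* (665), T cells gated on *Foxp3* (350) and NK-gated cells (262) of the same library, with the gate genes left out. Against *Cd4* cells, 53 of 9320 genes (0.569%) were 2-fold or more higher and 43 (0.461%) lower. The cytotoxic list had 6 of 15 higher and 0 lower, the chemokines 5 of 9 and 0, and the NK-type receptors 6 of 10 and 0. The highest were *Ccl5* (2327 against 75.02, log2 ratio 4.78), *Gzma* (1095 against 82.2, 3.58), *Ly6c2*, a surface marker of memory CD8 cells (183 against 9.55, 3.30), and *Xcl1* (196 against 15.4, 3.02). *Ifng* was higher by less than 2-fold, 496 (478 to 515) against 269 (log2 ratio 0.86). The lower ones included cytokines and ligands of helper cells, *Il22* (0.679 against 64.5), *Csf2* (22.4 against 143) and *Cd40lg* (5.77 against 49.7), and the costimulatory receptor *Tnfrsf4* (65.7 against 452). These counts, and those against *Foxp3* and NK cells that follow, include the mixed barcodes. Also among the 10 highest were *Tagln*, *Cxcl9* and *Acta2*, with 81.5%, 97.5% and 81.4% of their UMIs in ACD members in 3 cells. Also among the 10 lowest were *Acta1*, *Coch*, *Ccl21a* and *Saa3*.

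Against *Foxp3* cells, 150 of 8702 genes (1.72%) were higher and 227 (2.61%) lower. Of 14 cytotoxic genes 10 were higher, yet *Gzmb* was not, at 415 (399 to 432) against 798. *Ifng* stood at 496 against 20.1 and *Ctsw* at 515 against 22.3. Inhibitory receptors were divided, with 4 of 13 higher and 6 lower. *Lag3* (112 against 16.5) and *Pdcd1* (111 against 12.9) were higher, and *Ctla4* (117 against 868) was lower. The interferon-response list had 12 of 33 lower and 2 higher.

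Against NK cells, 205 of 8464 genes (2.42%) were higher and 311 (3.67%) lower. Among the 10 highest were the T cell surface genes *Cd6* (178 against 3.77) and *Cd5* (136 against 1.88), the receptor adaptor *Lat* (388 against 37.0) and *Pdcd1*, at 111 where NK cells had 0 UMIs. Also there were *Cxcl9* and the hemoglobin genes *Hbb-bs* and *Hba-a1*, the latter with 92.0% and 91.9% of their UMIs in 1 cell. The lowest were the adaptors *Tyrobp* (38.9 against 1568) and *Fcer1g* (28.2 against 1021) and *Klra1* (25.3 against 677), and 9 of 15 NK-type receptors were called lower. *Ifng* overlapped in its interval, 496 (478 to 515) and 485 (452 to 521), while *Gzma* (1095 against 3751), *Ccl5* (2327 against 4126), *Xcl1* (196 against 1468) and *Prf1* (20.03 against 150.02) were lower than in NK cells. Among killing genes, *Gzmk* (65.2 against 23.2) stood higher in CD8 members. Of 36 G2/M genes 12 were higher than in NK cells and 0 lower.

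**Figure D5:**
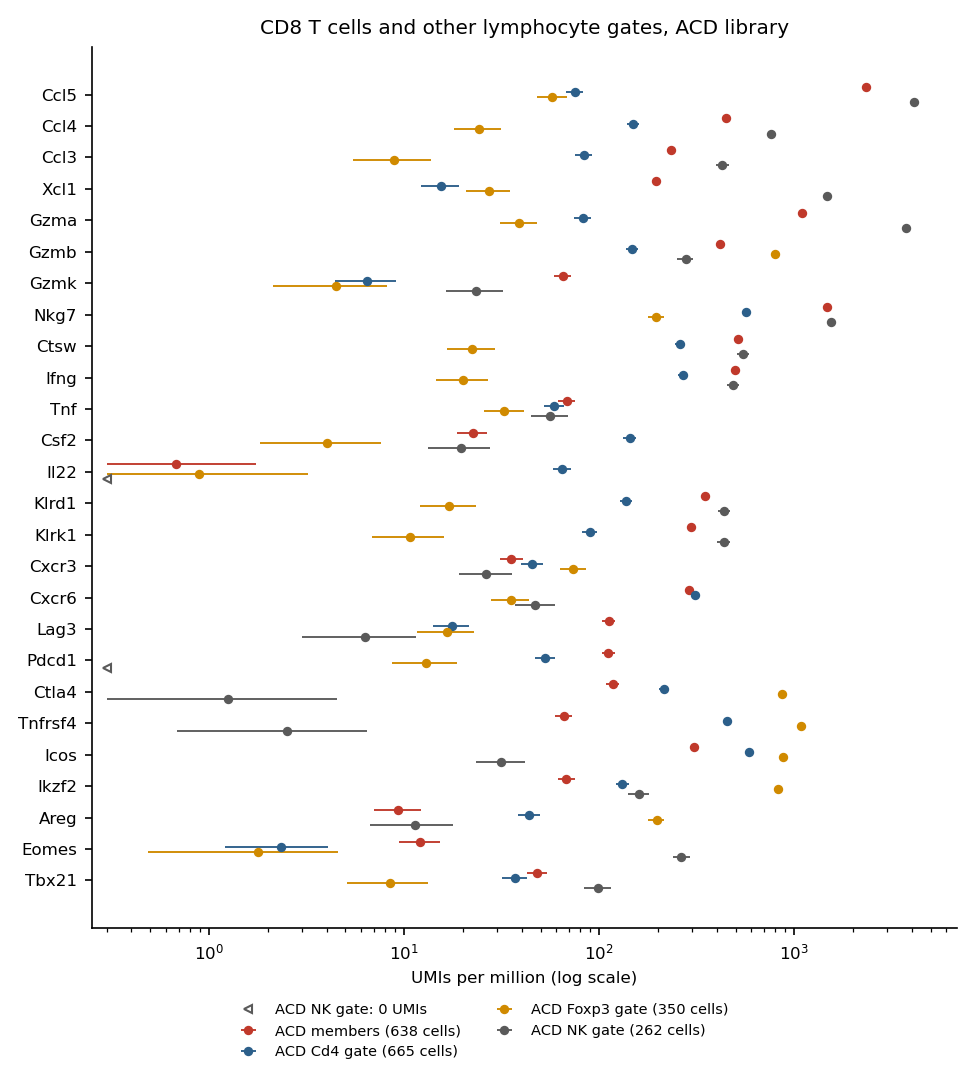
Levels of effector and receptor genes in ACD cells gated as CD8, *Cd4*, *Foxp3* or NK cells, in UMIs per 1000000 on a log axis, with exact 95% Poisson intervals cut at 0.3 on the left. *Ccl5*, *Gzma* and *Xcl1* are highest in NK cells and next in CD8 members, *Ifng* is level between these 2, and *Gzmb* is highest in *Foxp3* cells.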

How the data were processed

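The authors built 3′ droplet libraries with Chromium v2 reagents, made count files with Cell Ranger (3.1.0 in the submitters' processing notes) on mm10 and deposited UMI counts per gene and barcode, raw, for 27998 genes, 27722 of whose identifiers were found in GENCODE M21. The control library held 12895 barcodes and 99037698 UMIs, the ACD library 13163 and 126566870. The depth limits precision as the intervals show.

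Barcodes were kept with over 200 and under 5000 genes, mitochondrial UMIs below 8% and no more than 25000 UMIs. That last limit is a minimum in the study's methods and was taken as a maximum here. More cells pass than the methods state. The authors' clusters were not used. Members, gene lists and the Cd4 (at least 1 UMI, no Cd8), Foxp3 (at least 1 UMI, no Cd8), NK (no Cd3, Ncr1 and Klrb1c summing to at least 2) and cartilage (Col2a1, Acan and Comp summing to at least 10) gates were chosen with earlier results of these data known.

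Python 3.11.15, numpy 2.4.6, scipy 1.17.1, pandas 2.3.3 and scanpy 1.11.5 were used. Called means 2-fold or more, on levels with 10 UMIs per 1000000 added, among genes with at least 50 UMIs over both sides (ACD against control: a mean level of at least 250). Intervals are exact Poisson for levels, conditional binomial for ratios and Clopper-Pearson for shares. UMIs share cells, so intervals are too narrow for cell-to-cell spread. The code was checked on simulated counts. Named genes were drawn from the 6 highest genes of each of 22 lists, chosen effector and memory genes, the 10 highest and 10 lowest of each comparison and the 10 leading genes. The text gives those its comparisons turn on, and 1 gene is not reported here. Members of a list that were called, and a few others outside the rule, were named after their values were seen. RefSeq windows were matched by symbol, identifier or synonym.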

Additional observations from a re-analysis of the deposited data

Results flagged for a closer look

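The data outside the cell filter held a signal that the comparisons do not use. A total of 92 ACD barcodes met the CD8 rule but not the filter, 6.14% (4.98 to 7.48%) of the 1498 discarded, against 0 of 682 in control. Their median was 33236 UMIs and 5177.5 genes. Their levels were 894 (861 to 928) for *Gzmb*, against 415 in members, 453 (430 to 478) for *Ifng*, 383 (361 to 406) for *Gzma* and 208 (192 to 225) for *Ccl5*. No group held several libraries, so a search for samples far from their group was not possible.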

How the results depend on the processing

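No paired analysis was possible because each group is 1 library. Settings with mixed barcodes at 20 or more UMIs and without an upper limit were chosen after seeing the data. The log2 ratio of the CD8 share kept its sign under every alternative (5.43 to 6.16). The ACD share itself was 6.35% with a looser gate (1 UMI each of Cd3 and Cd8 was enough), 4.33% with a stricter one (both Cd8a and Cd8b1 found), 3.92% and 4.95% without barcodes of 5 or 20 or more UMIs of other types, and 6.69% without cartilage cells. Of ACD against control, 12 genes were higher and 49 lower with the looser gate, 14 and 20 as a mean over cells, 49 and 141 with a mean level of at least 100, and 52 lower after thinning. The cycling share was 32.5% over all barcodes, 28.7% with the stricter gate, 20.8% without barcodes of 5 or more other UMIs, 44.7% and 20.1% with a threshold of 1 or 5, and 32.2% without an upper limit.

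Genes higher in cycling members numbered 361 with 1 UMI per 1000000 added and 126 after thinning. Those lower numbered 114 over all barcodes, 86 and 58 without barcodes of 5 or 20 or more other UMIs, 138 as a mean over cells, 594 with 1 added, 144 after thinning, 152 with a threshold of 1 and 118 without an upper limit. *Fos* turned to 0.094 and 0.36 without barcodes of 5 or 20 or more other UMIs; the part of any 1 cell type in this was not tested. The ratio of *Ccl5* stayed between -3.50 and -2.21, *Klf2* between -2.36 and -1.16 and *Ccr7* between -1.94 and -0.93. With 1 added, genes higher and lower than in the gates were 124 and 132 (Cd4), 352 and 503 (Foxp3), 549 and 568 (NK), and 309 were higher than in NK cells without barcodes of 5 or more other UMIs. At 1000 UMIs per cell the shares were 30.1% for *Ifng*, 22.4% for *Gzma*, 21.9% for *Gzmb* and 39.7% for *Ccl5*. In ACD against control, *Ifng* ran from -0.04 to 0.99, *Ccl5* from -1.04 to 1.49 and *Gzma* from 0.89 to 3.15, apart from thinning, which left it 0 control UMIs (6.83 with 10 added, no bound), and these ratios rest on 10 control cells.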
